A study of Mus musculus with 37 samples.

Results

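The 28 genes described here are a module of cholesterol synthesis and its control: 19 enzymes that carry acetyl-CoA to cholesterol and its isoprenoid branch, 4 genes that sense sterols or process the transcription factor SREBP2, and 5 further genes of sterol and lipid handling. They were chosen by name from knowledge of the pathway, with earlier results of these data known. All 28 were found among the 21450 gene symbols of the probe table. Where a gene had several probes, the probe with the highest total count stood for it, and that probe passed the filter on low counts for all 28 genes.

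Livers came from wild-type mice of the CD1 stock (Crl:CD1(ICR)) dosed by oral gavage once a day with HFPO-DA, a short-chain perfluoroalkyl ether acid given as its ammonium salt, in deionized water. Besides vehicle alone (0 mg/kg) the doses were 0.1 mg/kg, 0.5 mg/kg and 5 mg/kg, and the question was how each dose changed liver transcripts relative to vehicle mice of the same sex. Males, about 6 weeks old at the start, received 84 or 85 doses from 70 days before mating until mating ended. Females, about 11 weeks old at the start, received between 53 and 65 doses from 14 days before mating to lactation day 20 or 21. Vehicle mice followed the same schedule. Sex therefore cannot be told apart from age, number of doses and lactation. By rising dose there were 5, 5, 5 and 4 mice among the males and 5, 5, 4 and 4 among the females, and each mouse gave 1 library from a scraped section of formalin-fixed, paraffin-embedded liver. TempO-Seq counts a ligated probe pair per target transcript, so a level here is the count of a probe and is compared between mice, not between genes.

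The liver makes cholesterol from acetyl-CoA through mevalonate, the isoprenoid pyrophosphates, squalene and lanosterol. When membrane sterol falls, the escort protein SCAP carries SREBP2 from the endoplasmic reticulum to the Golgi, where it is cleaved, and its free domain enters the nucleus and raises transcription of most enzymes of the route. INSIG proteins hold SCAP back when sterol is plentiful, and the related factor SREBP1 acts mainly on fatty acid synthesis.

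The 19 males had between 2101495 and 10548222 counts (median 7780828), 4 of them under 5000000, and the 18 females between 7952605 and 13878254 (median 10479002.5). The hepatocyte markers summed to between 9810 and 21459 CPM (counts scaled to a common TMM-normalised library size) in every mouse, so the defining markers of the labelled tissue were present. The 6 stellate cell markers, which include collagens, summed to between 33.6 and 811 CPM, the 4 cholangiocyte markers reached at most 54.6 CPM with between 0 and 2 of them without a count in a whole group, and those of adipocytes reached at most 0.987 CPM. The cholangiocyte sum lay between 24 and 54.6 CPM in 8 of the 37 mice and at or under 6.79 CPM in the others. The 8 were 1 mouse in each of the vehicle groups, 1 male at 0.1 mg/kg, 1 male at 0.5 mg/kg, 2 females at 0.1 mg/kg and 2 females at 0.5 mg/kg. In 5 of the 6 groups that held such a mouse, 1 of these mice was the lowest of its group for more of the cholesterol enzymes than any other mouse. How often each mouse was lowest over all probes was not counted. Of all cell-type markers tested, Kdr of endothelial cells was lowered in males at 5 mg/kg (log2 fold change -0.95, adjusted p = 0.0708) and Ttr of hepatocytes in females at 5 mg/kg (-0.69, adjusted p = 0.00345). In bulk liver, fewer cells of a type and less RNA per cell cannot be told apart.

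The promoters of this module are known for pairing a sterol regulatory element with boxes for the factors NF-Y and Sp1, so the windows from 250 bases before to 50 bases after each annotated start were read from RefSeq (build GRCm38.p6). A window was found for 23 of the 28 genes. The motifs searched on both strands were the sterol element core TCACNCCA, the NF-Y box CCAAT and the Sp1 box GGGCGG. The sterol core was found in 3 of the 23 genes (13%) beside 4.97% of the 27025 genes with a window. The NF-Y box was found in 21 of 23 (91.3%) beside 41.1% of all genes, and the Sp1 box in 20 of 23 (87%) beside 38.2%. The holders of the sterol core were Hmgcs1, Msmo1 and Srebf2, and each of the 3 also held an NF-Y box, a combination present in 1.9% of all genes. Pmvk, Lss and Nsdhl, called at 5 mg/kg below, held no such core in their windows, which says only that these letters are not there, and no window was found for Stard4, Fdps, Sqle, Fdft1 or Npc1. Stretches before the start are shown for the 3 holders, chosen because they carry both boxes, and for Pmvk, Lss and Nsdhl, chosen after their values were seen because they were raised at 5 mg/kg. Capitals mark the sterol core or the NF-Y box, which is written ATTGG where it lies on the other strand.

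Hmgcs1, chr13:119690101-119690333, plus strand: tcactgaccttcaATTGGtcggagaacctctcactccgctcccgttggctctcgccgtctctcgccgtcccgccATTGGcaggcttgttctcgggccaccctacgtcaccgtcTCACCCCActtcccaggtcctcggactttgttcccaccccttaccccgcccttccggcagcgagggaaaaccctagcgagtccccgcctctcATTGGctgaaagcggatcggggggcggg
Msmo1, chr8:64733606-64733775, minus strand: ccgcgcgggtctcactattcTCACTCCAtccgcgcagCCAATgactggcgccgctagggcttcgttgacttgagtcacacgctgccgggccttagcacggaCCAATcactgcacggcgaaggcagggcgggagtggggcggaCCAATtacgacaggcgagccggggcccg
Srebf2, chr15:82147087-82147161, plus strand: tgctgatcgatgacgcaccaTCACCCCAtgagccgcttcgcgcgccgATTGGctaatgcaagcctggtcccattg
Pmvk, chr3:89454385-89454432, plus strand: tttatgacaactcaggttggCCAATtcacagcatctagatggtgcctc
Lss, chr10:76531523-76531570, plus strand: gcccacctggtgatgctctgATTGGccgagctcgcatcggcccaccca
Nsdhl, chrX:72918392-72918520, plus strand: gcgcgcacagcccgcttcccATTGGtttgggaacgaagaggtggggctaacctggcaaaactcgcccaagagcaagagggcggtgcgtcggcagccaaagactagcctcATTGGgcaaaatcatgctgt

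The sterol core began 137 bases before the start in Hmgcs1, 177 in Msmo1 and 162 in Srebf2, and it overlapped no NF-Y box in these stretches. The Lss and Nsdhl windows also held Sp1 boxes, while the Pmvk window shown held a single NF-Y box and neither of the other motifs.

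At 5 mg/kg the enzymes of the module stood mostly above vehicle in both sexes, but few single genes passed the test. In males, 4 of the 28 were called with edgeR's quasi-likelihood test and Benjamini-Hochberg adjustment over all 18570 probes tested (FDR under 10%), beside 12.7% of all probes. Pmvk, Lss and Nsdhl were raised (4.21% of all probes were raised) and Stard4 was lowered (8.49% were lowered). In females, Pmvk alone was called, and raised, beside 4.52% of all probes, of which 2.26% were raised and 2.26% lowered. The median log2 fold change of the 28 was 0.33 in males and 0.22 in females, beside -0.12 and -0.01 over all probes. Both estimates lay above 0 for 15 of the 19 enzymes, and both lay below 0 for 1.

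Of the first steps, Acat2 encodes the thiolase that joins acetyl-CoA units and Hmgcs1 the synthase that makes HMG-CoA. Neither passed the test in any comparison. Hmgcs1 read 140, 125, 177 and 126 CPM in males at 5 mg/kg beside 56.6, 130, 63.7, 66.6 and 47 in vehicle males. Vehicle replicate 2 alone lay within the dosed range, and the log2 fold change was 0.96 ± 0.43 (SE, adjusted p = 0.166). It was called in 1 of the 9 fits without 1 mouse, that without vehicle replicate 2 (adjusted p = 0.0883), and with no filter on low counts (adjusted p = 0.0799). Females at 5 mg/kg gave 0.12 ± 0.43 for this gene.

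Acat2 had the smallest p of the pair, in females at 5 mg/kg, where its CPM was 392, 219, 322 and 436 beside 420, 438, 675, 427 and 397 in vehicle females. All but the last of the dosed females lay below every vehicle female, and the log2 fold change was -0.46 ± 0.20 (SE, adjusted p = 0.272). In males at 5 mg/kg Acat2 read 393, 436, 558 and 551 CPM beside 332, 433, 519, 492 and 506, with a log2 fold change of 0.09.

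The other 2 probes of Acat2 gave another picture from the one that stood for it. Probe 29872 read 57.1, 33.4, 57.4 and 50.8 CPM in males at 5 mg/kg beside 17.5, 32, 10.6, 27.9 and 14.2 in vehicle males, with no overlap, a log2 fold change of 1.28 and an adjusted p of 0.0098. In females at 5 mg/kg the same probe read 46.4, 26.7, 29.5 and 33.3 CPM beside 12.5, 7.89, 27.1, 16.8 and 7.49 (1.24, adjusted p = 0.0208), and the groups overlapped by 1 dosed female. Probe 70667 changed by 0.92 in females (adjusted p = 0.0797). These 2 probes held 7391 and 16272 counts over all mice, fewer than the top probe. Which transcript each probe meets was not tested, because probe sequences were not used here. Among all 28 genes, 22 further probes of 16 genes were tested, and 16 of the 22 had the sign of the top probe in each sex at 5 mg/kg. No other further probe was called.

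Pmvk (phosphomevalonate kinase, which adds the second phosphate to mevalonate; chr3:89454541-89469013, plus strand) had the smallest p of the module in both sexes. In males its CPM was 382, 489, 406, 413 and 159 with vehicle, 419, 431, 568, 376 and 262 at 0.1 mg/kg, 415, 514, 531, 528 and 365 at the middle dose of 0.5 mg/kg, and 797, 838, 735 and 840 at 5 mg/kg. All 4 males at 5 mg/kg lay above every other male, and replicate 5 of the vehicle group lay far below the rest. The mean rose from 370 ± 125 (SD, n = 5) to 803 ± 48.9 (n = 4), a log2 fold change of 1.12 ± 0.27 (SE, adjusted p = 0.00589).

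In females Pmvk read 255, 185, 393, 174 and 124 CPM with vehicle, 243, 80.6, 138, 110 and 179 at 0.1 mg/kg, 277, 307, 299 and 392 at the middle dose of 0.5 mg/kg, and 738, 524, 386 and 452 at 5 mg/kg. Of the 4 females at 5 mg/kg, 3 lay above all vehicle females, and the other lay just under vehicle replicate 3. The mean rose from 226 ± 104 (n = 5) to 525 ± 153 (n = 4), a log2 fold change of 1.21 ± 0.27 (adjusted p = 0.00404). Pmvk kept its call at 5 mg/kg without any 1 mouse of the groups compared, with log2 fold changes of 0.93 to 1.204 in males and 1.003 to 1.49 in females. At 0.5 mg/kg it was not called (0.35 in males and 0.49 in females, adjusted p = 0.786 and 1).

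**Figure D1:**
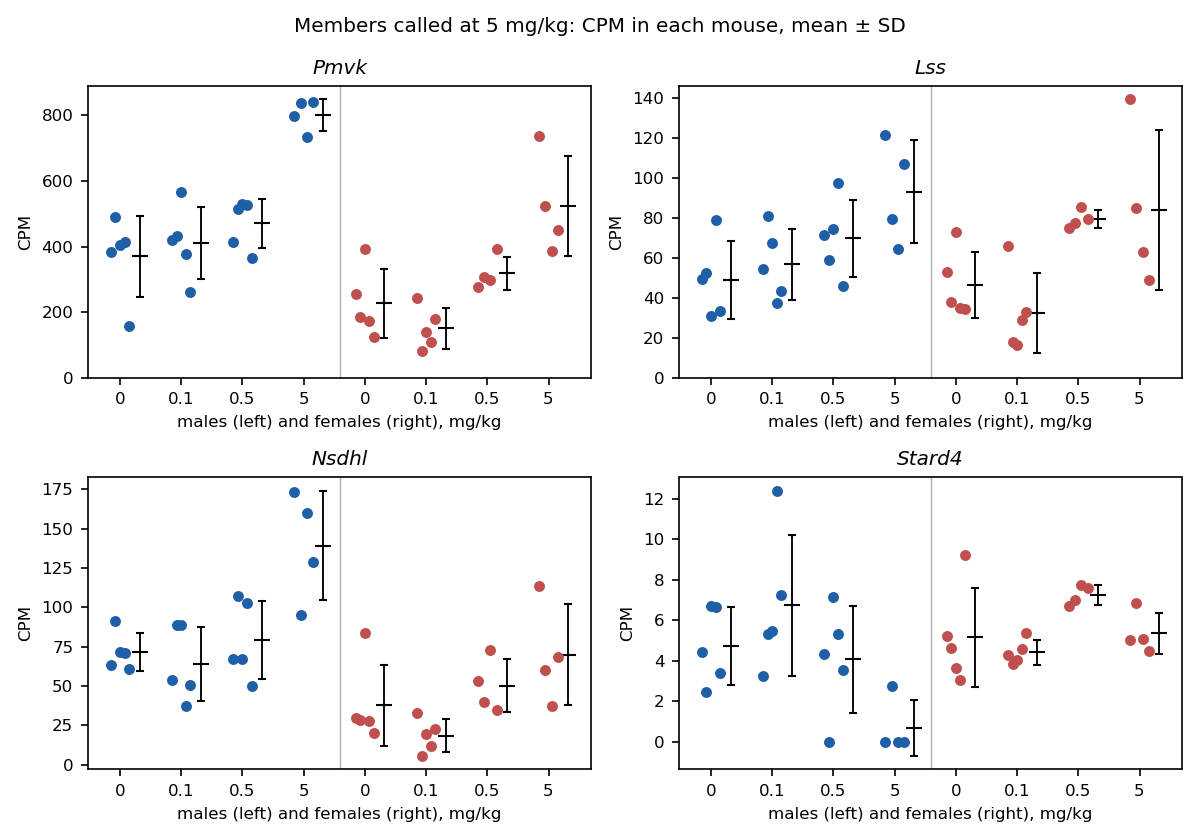
The plots by dose show the CPM of Pmvk, Lss, Nsdhl and Stard4 (vertical axes, linear) in each mouse, males in blue on the left and females in red on the right, with the group mean ± SD as a bar beside the points. Pmvk at 5 mg/kg sits between 735 and 840 CPM in males, above all other males, and Stard4 is at 0 in 3 of the 4 males at that dose.

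The other enzymes of the mevalonate and isoprenoid steps were not called. Idi1, the isomerase of isopentenyl pyrophosphate, lay between 110 and 187 CPM in males at 5 mg/kg and between 53.7 and 99.9 with vehicle, with no overlap (log2 fold change 0.94, adjusted p = 0.137). In females at 5 mg/kg it read 0.30 (adjusted p = 0.990). Fdps, which makes farnesyl pyrophosphate, read 0.29 in males and 1.136 in females, with an adjusted p of 0.767 and 0.181. Mvk, the first mevalonate kinase, read 0.15 and -0.17, and Ggps1, which makes geranylgeranyl pyrophosphate, -0.06 and -0.15. Mvd, the decarboxylase, was near the floor of detection, with at most 7.24 CPM in any mouse, so its log2 fold changes (1.80 in males and 0.54 in females, adjusted p = 0.538 and 1) rest on few counts.

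Of the squalene steps, Lss (lanosterol synthase, which closes the sterol rings; chr10:76531588-76557138, plus strand) was raised in males. Its CPM was 49.2, 52.4, 30.6, 79.1 and 33.2 with vehicle, 54.6, 80.9, 67.3, 37.4 and 43.3 at 0.1 mg/kg, 71.6, 58.8, 74.4, 97.7 and 45.9 at the middle dose of 0.5 mg/kg, and 122, 79.3, 64.5 and 107 at 5 mg/kg. The groups at 0 and 5 mg/kg overlapped through vehicle replicate 4 and 1 dosed male. The log2 fold change was 0.93 ± 0.32 (SE, adjusted p = 0.066). The call was kept in 3 of the 9 fits that each left out 1 mouse: without vehicle replicate 4 and without replicates 2 or 3 at 5 mg/kg. In the other 6 the adjusted p ran up to 0.20.

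In females Lss read 53.1, 38, 72.8, 34.8 and 34.3 CPM with vehicle, 66.1, 18, 16.4, 28.9 and 32.8 at 0.1 mg/kg, 75, 77.6, 85.7 and 79.3 at the middle dose of 0.5 mg/kg, and 140, 84.7, 62.9 and 48.7 at 5 mg/kg. All 4 females at 0.5 mg/kg lay above all vehicle females, and those at 5 mg/kg spread across the vehicle range and beyond. Neither change was called (0.77, adjusted p = 1, and 0.85, adjusted p = 0.185). At 5 mg/kg a second probe of Lss read 1.40 in males and 1.24 in females (adjusted p = 0.103 and 0.287).

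Sqle, the epoxidase of squalene, lay between 167 and 273 CPM in males at 5 mg/kg and between 61.7 and 151 with vehicle, without overlap (log2 fold change 0.88, adjusted p = 0.268). In females it read 1.15 at 0.5 mg/kg (adjusted p = 1) and 1.03 at 5 mg/kg (adjusted p = 0.354). A second probe of Sqle lay between 94.3 and 153 CPM in males at 5 mg/kg and between 71.2 and 163 with vehicle. These groups overlapped, at a log2 fold change of 0.40 (adjusted p = 0.698), and in females at 5 mg/kg that probe read 0.80 (adjusted p = 0.596). Fdft1, the squalene synthase, at 5 mg/kg read 0.41 in males and 0.47 in females (adjusted p = 0.344 and 0.480).

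From lanosterol to cholesterol, Nsdhl (the dehydrogenase that helps remove methyl groups from lanosterol; chrX:72918557-72958514, plus strand) was raised in males. Its CPM was 63.4, 91.2, 72, 71 and 60.8 with vehicle, 53.9, 88.9, 88.6, 37.7 and 50.5 at 0.1 mg/kg, 67.4, 107, 67.3, 103 and 50.4 at the middle dose of 0.5 mg/kg, and 173, 95.1, 160 and 129 at 5 mg/kg. All males at 5 mg/kg lay above all vehicle males, by a small margin for replicate 2. The log2 fold change was 0.96 ± 0.36 (SE, adjusted p = 0.0916), and of the 9 fits without 1 mouse only that without male 5 mg/kg replicate 2 kept the call, with an adjusted p of up to 0.214 in the others.

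In females Nsdhl read 29.5, 28.4, 83.5, 28.1 and 20.1 CPM with vehicle, 33.2, 5.7, 19.7, 12 and 22.5 at 0.1 mg/kg, 53.1, 39.9, 72.7 and 34.9 at the middle dose of 0.5 mg/kg, and 114, 60.1, 37 and 68.7 at 5 mg/kg. Vehicle replicate 3 lay among the females at 5 mg/kg, and the other 4 vehicle females lay below all of them. The log2 fold change at 5 mg/kg was 0.88 (adjusted p = 0.242).

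Cyp51, the lanosterol demethylase, lay between 49 and 75.8 CPM in males at 5 mg/kg and between 27 and 46.2 with vehicle, without overlap, at a log2 fold change of 0.61 (adjusted p = 0.368). In females it read 0.89 (adjusted p = 0.311). Hsd17b7, a ketoreductase that acts with Nsdhl, read 0.43 and 0.87 at 5 mg/kg in males and females, and Dhcr7, which reduces 7-dehydrocholesterol, 0.49 and 0.71. Smaller values were found for Sc5d, the lathosterol desaturase (0.37 and 0.28), Tm7sf2, a sterol reductase (0.25 and 0.10), Ebp, the sterol isomerase (0.17 and 0.16), and Msmo1, the methylsterol oxidase (-0.17 and 0.10), and none of these was called. A second probe of Ebp went the other way at 5 mg/kg, at -0.66 in males and -0.68 in females (adjusted p = 0.256 and 0.428). In the GENCODE M21 annotation (GRCm38), Mvd, Fdps, Ggps1, Fdft1, Cyp51, Tm7sf2 and Npc1 overlap another protein-coding gene, and none of the called members does. The groups of males at 0 and 5 mg/kg did not overlap, with the dosed mice higher, for 5 members (Pmvk, Idi1, Sqle, Cyp51 and Nsdhl), beside 2.78% of all probes. In females at 5 mg/kg this held for none, beside 4.4% higher and 4.31% lower over all probes.

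The sensing and processing genes stood mostly below vehicle, and none passed the test. Srebf2, which encodes SREBP2 itself, read 47.8, 44.2, 40.7, 42 and 42.9 CPM in vehicle males, 18.8, 28.8, 26.8, 43.4 and 28.4 at 0.1 mg/kg, 26.3, 45.3, 40.9, 28.3 and 14.3 at the middle dose of 0.5 mg/kg, and 39.6, 30.7, 25.9 and 25.8 at 5 mg/kg. The vehicle males lay close together, and all males at 5 mg/kg lay below them (the only member to do so, beside 4.8% of all probes). The log2 fold changes were -0.58, -0.50 and -0.51 in order of dose (adjusted p = 0.626, 0.472 and 0.224).

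In females Srebf2 read 41.9, 52.5, 98.2, 54.5 and 53.5 CPM with vehicle, 52.6, 41.9, 38.1, 50.4 and 40.5 at 0.1 mg/kg, 38.6, 41.2, 39.9 and 27.8 at the middle dose of 0.5 mg/kg, and 53, 59.6, 47.2 and 35.8 at 5 mg/kg. The females at 0.5 mg/kg lay below all vehicle females, by a narrow margin from vehicle replicate 1, and those at 5 mg/kg did not. The log2 fold change at 0.5 mg/kg was -0.70 ± 0.26 (SE, adjusted p = 0.976). Scap read -0.36 and -0.10 at 5 mg/kg, Insig1 -0.35 and 0.13, and Insig2 0.07 and -0.19, in males and females. Scap was called lower in males only in fits without mice of low depth or without male 5 mg/kg replicate 1 (-0.64, adjusted p = 0.0364, and -0.72, adjusted p = 0.0309).

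Of the genes of sterol and lipid handling, Stard4 (a carrier that moves cholesterol between membranes; chr18:33199355-33213862, minus strand) was lowered in males at 5 mg/kg, on low counts. Its CPM was 4.44, 2.46, 6.69, 6.64 and 3.41 with vehicle, 3.23, 5.35, 5.45, 12.4 and 7.23 at 0.1 mg/kg, 4.35, 0, 7.15, 5.34 and 3.53 at the middle dose of 0.5 mg/kg, and 0, 2.76, 0 and 0 at 5 mg/kg. Of the 4 males at 5 mg/kg, 3 had no count, and replicate 2, which had 25 counts, lay within the vehicle range. A count of 0 allows up to 3 counts, which is 0.707, 1.13 and 0.464 CPM in those 3 mice (counting error only), all under the lowest vehicle male. The log2 fold change was -2.52 ± 0.81 (SE, adjusted p = 0.0433). Without replicate 2 the remaining dosed males were all at 0 and the fitted value became -8.42, which is no measured size, and without any other 1 mouse it lay between -2.73 and -2.15. The call was lost without replicate 1 (adjusted p = 0.1003) or replicate 3 at 5 mg/kg (adjusted p = 0.108), without mice under 5000000 counts (-1.76, adjusted p = 0.152) and with each sex fitted apart (adjusted p = 0.241). Replicates 1 and 3 at 5 mg/kg were themselves under 5000000 counts.

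Females showed no such pattern. Stard4 read 5.24, 4.61, 3.65, 3.05 and 9.24 CPM in vehicle females and 5.02, 6.84, 5.09 and 4.51 at 5 mg/kg, with a log2 fold change of 0.06 ± 0.71 (SE). The difference between the sexes at 5 mg/kg was 2.58 ± 1.06 (SE, female minus male, adjusted p = 0.381), which did not pass the test. It passed only without male 5 mg/kg replicate 2, after which every remaining dosed male was at 0.

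The remaining 4 were not called. Rdh11, a retinal and retinol reductase, read 0.999 and 0.548 at 5 mg/kg in males and females, and Tmem97, a sterol-regulated membrane protein, 0.44 and 0.42. A second probe of Tmem97 read -0.01 and 0.38. Mylip, the ligase that degrades lipoprotein receptors, read -0.64 and -0.76, and Npc1, the lysosomal cholesterol exporter, 0.09 and -0.07. Mylip reached at most 13.9 CPM and Npc1 at most 15.05 CPM in any mouse, so both values rest on few counts.

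**Figure D2:**
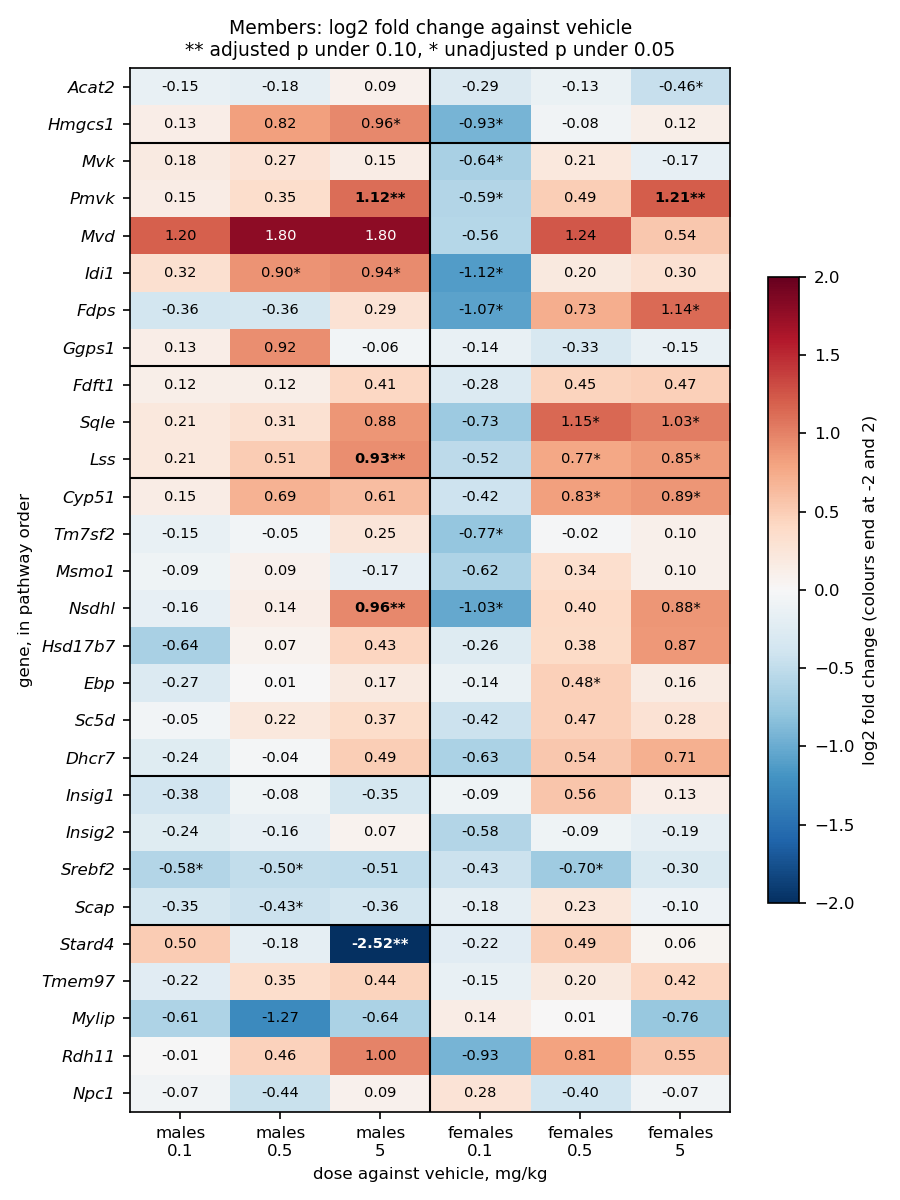
The heat map gives the log2 fold change of each member (rows, in pathway order, with lines between the 6 roles) in the 6 comparisons of a dose with vehicle (columns), red for higher and blue for lower. The enzymes are mostly red at 5 mg/kg in both sexes and blue throughout in females at 0.1 mg/kg, while 2 asterisks, for an adjusted p under 0.10, stand on Pmvk, Lss, Nsdhl and Stard4 in males and on Pmvk in females.

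Below 5 mg/kg no member was called in either sex. Over all probes the shares called in males were 0% at the low dose and 0.625% at 0.5 mg/kg, and in females 0% and 0.113%. At an unadjusted p under 0.05, males had 1 member at 0.1 mg/kg (7.14% of all probes), 3 at 0.5 mg/kg (10.3%) and 6 at 5 mg/kg (23.3%). Of the 3 at 0.5 mg/kg, Idi1 was higher (0.90, adjusted p = 0.386) and Srebf2 and Scap were lower. Females had 7 at 0.1 mg/kg (2.38%), 5 at 0.5 mg/kg (4.33%) and 7 at 5 mg/kg (12.3%).

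The 7 in females at 0.1 mg/kg were all lower (1.3% of all probes were): Hmgcs1, Mvk, Pmvk, Idi1, Fdps, Tm7sf2 and Nsdhl, with log2 fold changes from -0.59 for Pmvk to -1.12 for Idi1. Of the 28 members 26 lay below 0, the 19 enzymes among them, and the median was -0.48 beside 0.01 over all probes. At 0.5 mg/kg the direction was the other one. There, 15 of the 19 enzymes lay above 0, the median of all 28 was 0.39 beside -0.02 over all probes, and Sqle, Lss, Cyp51 and Ebp were higher and Srebf2 lower at an unadjusted p under 0.05. In that comparison 1 member, Lss, lay above and 1, Srebf2, below without overlap, beside 1.52% and 1.49% of all probes. These comparisons share the same 5 vehicle females.

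At 0.1 mg/kg, 2 of the females with low enzyme values had high marker sums of other cell types, and other low females did not. Females 2 and 3 of that group, with median deviations of the enzymes from vehicle of -1.27 and -0.73 on the log2 scale, had stellate sums of 811 and 287 CPM and cholangiocyte sums of 39.7 and 24 CPM. The other 3 had 73.2 to 153 CPM and at most 3.82 CPM. Their median deviations were 0.43 for female 1, -0.57 for female 4 and -0.32 for female 5. Female 4 had the lowest sums of the group, 73.2 CPM of stellate and 2.01 CPM of cholangiocyte markers. Without the 8 mice over 20 CPM of cholangiocyte markers, an alternative chosen after seeing the data, 24 of the 28 members still lay below 0 in females at 0.1 mg/kg, the median was -0.31 beside 0 over all probes, and 4 members were lower at an unadjusted p under 0.05 (0.848% of all probes). At 0.5 mg/kg, where that left 2 dosed females, the median was 0.19 and 1 member, Srebf2, had an unadjusted p under 0.05 (2.54% of all probes). At 5 mg/kg Pmvk kept its call in both sexes (0.90 and 1.04) and Stard4 in males, while Lss and Nsdhl lost theirs (adjusted p = 0.142 and 0.118), beside 8.47% of all probes called in males and 3.4% in females.

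Among those vehicle females, 1 mouse stood apart for most enzymes. Vehicle replicate 3 had the highest level of its group for 17 of the 19 enzymes. Hmgcs1 was 281 CPM in that mouse and between 29.1 and 64.4 in the other 4 vehicle females. Idi1 was 194 beside 27.6 to 50.2, Msmo1 622 beside 172 to 226, Nsdhl 83.5 beside 20.1 to 29.5, and Dhcr7 48.1 beside 9.84 to 23.2. The mouse was 5.29 times the mean of the other 4 for Hmgcs1, 3.15 times for Nsdhl and 1.61 times for Acat2. The levels of Ebp and Scap in that mouse (0.978 and 0.733 times that mean) were not raised. Ggps1 (0.436), Stard4 (0.66), Mylip (0.312) and Npc1 (0.487), all on low counts, also lay below that mean.

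The same mouse was not at an extreme over the whole table. It was the highest of the 5 vehicle females at 19.4% of all probes, its total of 10441369 counts lay within the range of its group, and it was highest for 2 of 12 lipogenic SREBP1 targets. Its summed hepatocyte markers, 14833 CPM, were the lowest of the group (17799 to 21459 in the other 4), and their part in the result was not tested. The lowest male of the vehicle group was replicate 5, which had the lowest level for 13 of 19 enzymes. That mouse had 244 CPM of stellate markers and 45.3 CPM of cholangiocyte markers, beside 48.7 to 83.3 and at most 1.82 CPM in the other vehicle males. Vehicle female replicate 5, also lowest for 13 enzymes, had 547 and 48.8 CPM, male replicate 4 at 0.1 mg/kg, lowest for 10, had 296 and 54.6 CPM, and female replicate 2 at 0.1 mg/kg, described above, was lowest for 12. In the order named, these mice were the highest of their groups at 22.8%, 24.1%, 22.6% and 21.5% of all probes. How often they were lowest over all probes was not counted, so the counts of lowest enzymes have no such share beside them. The part of these markers in the levels was not tested. Leaving out the mice over 20 CPM of cholangiocyte markers took mice from vehicle and dosed groups, so it cannot decide this. Among dosed females, replicate 1 at 0.1 mg/kg was the highest of its group for 16 enzymes and replicate 1 at 5 mg/kg for 17.

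**Figure D3:**
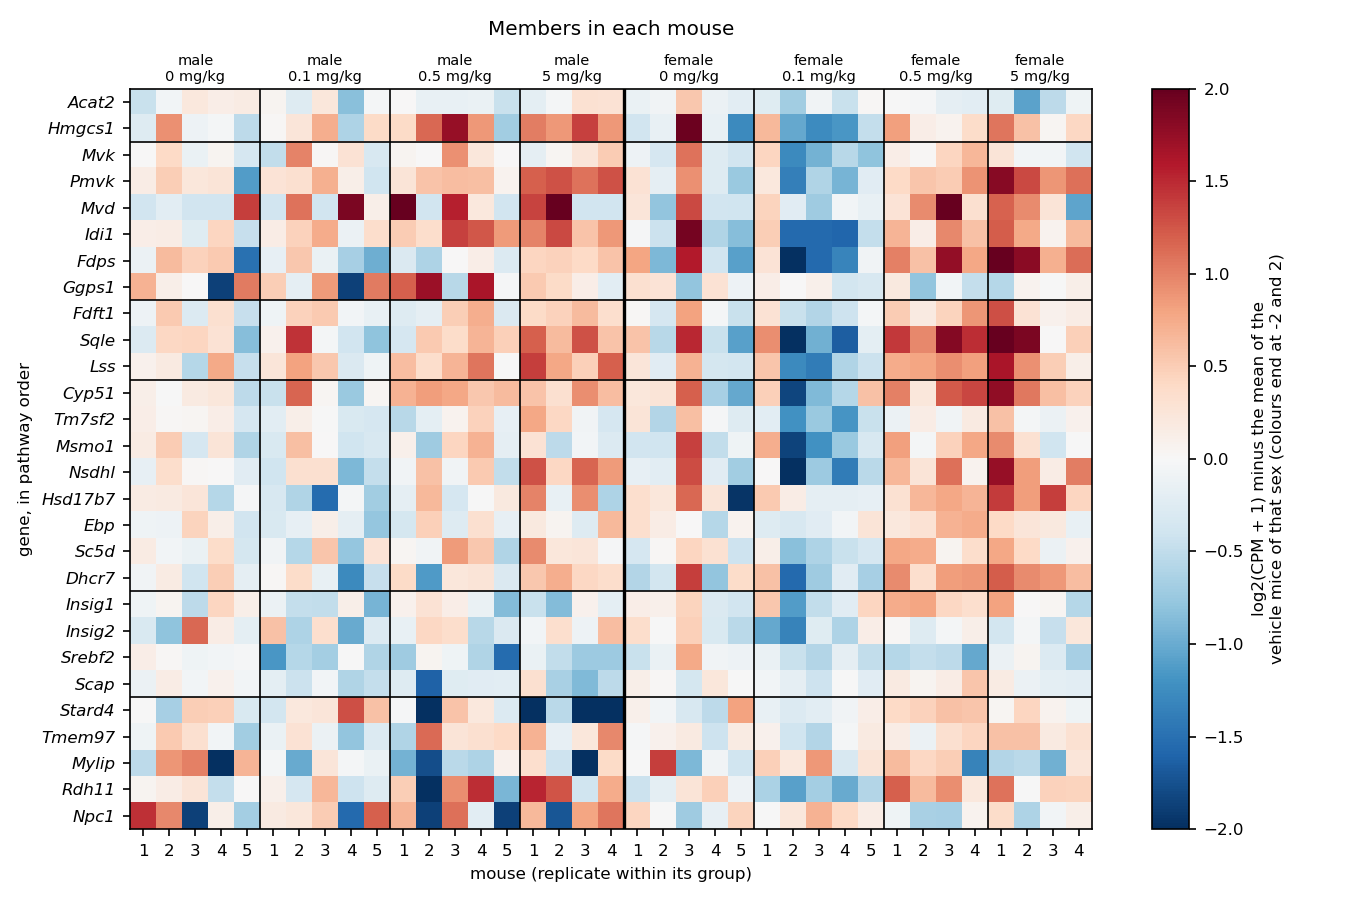
The heat map shows each member (rows, in pathway order) in each of the 37 mice (columns, grouped by sex and dose), as log2(CPM + 1) minus the mean of the vehicle mice of the same sex. Vehicle female 3 stands out in red over most enzymes, with a median deviation of 1.15, and females 2, 3 and 4 at 0.1 mg/kg in blue, with medians from -1.27 to -0.57.

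The number of calls in females turned on vehicle female 3, while Pmvk was called with or without it. Without it, 8 members were raised at 5 mg/kg in place of 1: Pmvk (log2 fold change 1.49), Fdps (1.69), Sqle (1.58), Nsdhl (1.39), Cyp51 (1.305), Dhcr7 (1.24), Idi1 (1.17) and Lss (1.05), with adjusted p from 0.0004 for Pmvk to 0.086 for Lss. In that fit 2.15% of all probes were raised. The median of the 28 moved from 0.22 to 0.53 (-0.02 over all probes), and 11 members had an unadjusted p under 0.05, all higher, beside 5.85% of all probes. At 0.5 mg/kg the median moved from 0.39 to 0.71 and the count at an unadjusted p under 0.05 from 5 to 15, all 15 higher (2.78% of all probes were), but none was called (0.092% of all probes). At 0.1 mg/kg the count at an unadjusted p under 0.05 went from 7 to 1 (2.22% of all probes), and the median from -0.48 to -0.17. The values with and without this mouse are both given because nothing in the labels sets it apart. It was picked out for its high levels of these genes, so leaving it out raises most of their changes by construction. The calls gained that way are no separate support for a rise.

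**Figure D4:**
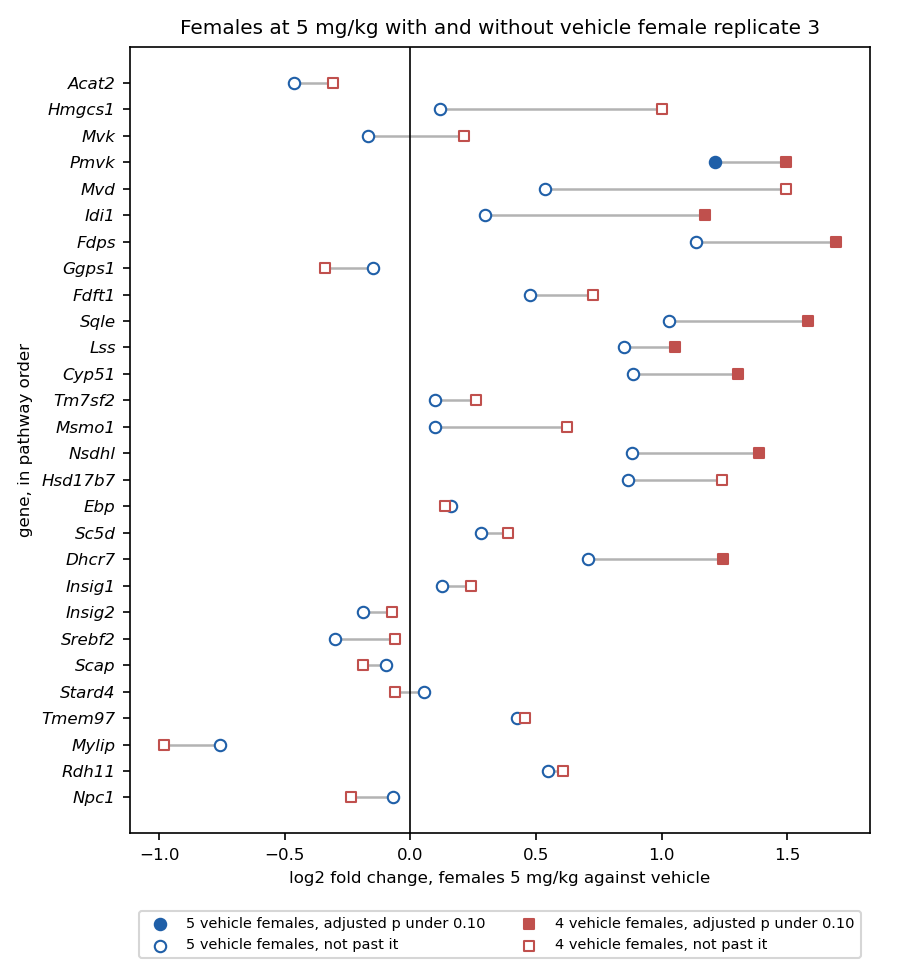
The plot gives the log2 fold change of each member (rows) in females at 5 mg/kg against all 5 vehicle females (blue circles) and against 4, without replicate 3 (red squares), with filled marks for an adjusted p under 0.10. There is 1 filled circle, Pmvk, and there are 8 filled squares, and most enzymes move to the right. Replicate 3 was picked out for its high levels of these genes, so this move follows from leaving it out.

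The sexes were compared directly in the change at each dose, coded female minus male. No member passed the test at any of the 3 doses, where 0%, 0.0108% and 0.63% of all probes did in rising order. At an unadjusted p under 0.05 there were 3 members at 0.1 mg/kg (Pmvk, Idi1 and Tm7sf2, all lower in females; 4.46% of all probes), 1 at 0.5 mg/kg (Scap, 5.13%) and 1 at 5 mg/kg (Stard4, 10.7%). For Pmvk at 5 mg/kg the changes were 1.12 in males and 1.21 in females. Without vehicle female 3, the 3 members at 0.1 mg/kg no longer had an unadjusted p under 0.05. The median difference of the members then moved from -0.47 to -0.17 at 0.1 mg/kg, from 0.25 to 0.45 at 0.5 mg/kg and from -0.05 to 0.16 at 5 mg/kg.

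Vehicle females were also set beside vehicle males, a contrast of sex, age, dosing period and lactation together. No member was called, beside 2.6% of all probes, and 7 had an unadjusted p under 0.05 (10.9% of all probes): Pmvk (-0.71), Fdps (-0.97), Cyp51 (-1.02), Nsdhl (-0.92), Hsd17b7 (-1.20) and Dhcr7 (-0.72) were lower in females and Sc5d (0.50) higher. Without vehicle female 3, 8 were called lower in females, those of the list other than Sc5d together with Idi1 (-1.06) and Msmo1 (-1.13), beside 1.51% of all probes lowered in that fit. Without male vehicle replicate 5, Pmvk was called alone, beside 2.27% of all probes.

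Genes next to the module were counted from 4 lists. All 12 lipogenic SREBP1 targets were tested. In males at 5 mg/kg 7 were raised and none lowered, with a median of 0.77 beside -0.12 over all probes. The other 5 lay below 0 in males, down to -2.35, and 1 of these had an unadjusted p under 0.05. In females 4 were raised, with a median of 0.99 beside -0.01, and 2 of the 12 lay below 0, down to -0.23. Over all probes 4.21% were raised in males and 2.26% in females. Scd1, the stearoyl-CoA desaturase, rose from 547 ± 300 (SD, n = 5) to 1881 ± 482 CPM (n = 4) in males (log2 fold change 1.78, adjusted p = 0.00112) and from 591 ± 301 to 2812 ± 650 CPM in females (2.25, adjusted p = 7.7e-05). Me1 (malic enzyme, 2.29 and 1.89), Fasn (fatty acid synthase, 0.996 and 0.937) and Gpam (which starts glycerolipid synthesis, 0.76 and 1.04) were raised in both sexes. Acaca (0.78), Elovl6 (1.41) and Acss2 (1.86) were called in males. Several of these are also known targets of the receptor PPARα.

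Of 10 genes of SREBP processing and sterol-regulated degradation, Rnf145, a sterol-responsive ligase, was raised in males at 5 mg/kg (2.74, adjusted p = 0.00143), and Rnf139, a ligase of the endoplasmic reticulum, was lowered in females (-0.79, adjusted p = 0.00774). Rnf145 rose from 2.33 ± 1.64 CPM (SD, n = 5) to 15.7 ± 6.07 (n = 4), so its fold rests on few counts in vehicle males. These calls are 1 gene in each sex, beside 12.7% of all probes called in males and 4.52% in females. Of 9 users of non-sterol isoprenoids, Pdss2 of coenzyme Q synthesis was lowered in males at 5 mg/kg (-0.93, adjusted p = 0.0602). In males, 1 call among 10 genes and 1 among 9 lie near the 12.7% over all probes.

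Of 16 genes of esterification, storage and efflux, Nceh1, a cholesteryl ester hydrolase, was raised in males at 0.5 and 5 mg/kg (1.25, adjusted p = 0.0166, and 2.06, adjusted p = 1.3e-06) and in females at 5 mg/kg (0.93, adjusted p = 0.0526). In males at 5 mg/kg Scarb1, the receptor for HDL, was lowered from 99.9 ± 19.2 to 50.4 ± 20.1 CPM (-0.99, adjusted p = 0.0275) and Stard5, a sterol carrier, was lowered by the same test (-1.06, adjusted p = 0.00316). Soat1, which esterifies cholesterol, was called lower in males at 5 mg/kg, where all 4 mice were at 0, but vehicle males had at most 1.32 CPM, so no fold is given. Of the 16 genes, 1 was raised and 3 were lowered in males at 5 mg/kg, beside 4.21% and 8.49% of all probes. In females at 5 mg/kg 1 was raised, beside 2.26%, and in males at 0.5 mg/kg 1 was raised, beside 0.625% called. At 0.1 mg/kg no gene of the 4 lists was called in either sex.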

How the data were processed

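TempO-Seq was run on sections of fixed liver. The authors extracted the number of reads per probe (bcl2fastq 2.17.1.14 and Bowtie, per the submitters' processing notes), left out mice that fell short in sequencing depth or in probes detected, and deposited raw counts of 30146 probes in 37 mice. The probe alignment build is not given in the sources used here. Mice were grouped by the labelled sex and dose. Replicate numbers follow accession order and pair no mice. Each mouse gave 1 library, so animal and technical spread are not separated.

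The deposited counts were fitted with edgeR 4.0.16 in R 4.3.3: filterByExpr (18570 probes kept), TMM, 1 quasi-likelihood model with a mean for each of 8 groups, and Benjamini-Hochberg adjustment over all probes at 0.10. Standard errors were taken as the log2 fold change over the square root of F. CPM was counts over TMM-normalised library size. Scripts were tested on simulated data. The authors used DESeq2, which was here an alternative (1.42.0), with other size factors, no filter or a mean of at least 10 counts, each sex apart, summed probes, mice over 5000000 counts, and each mouse left out. Leaving out mice over 20 CPM of cholangiocyte markers was added after seeing the data. The members, lists and tests were chosen with earlier results of these data known. All members were named, with CPM per mouse for those called and otherwise for the member of each role with the smallest p. Figures were drawn with matplotlib 3.10.9.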

Additional observations from a re-analysis of the deposited data

Results flagged for a closer look

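In 224 sets of 1 gene in 1 group of 4 or 5 mice, the mouse farthest from the rest was set against Dixon's 95% limit, and 20 sets (8.93%) passed it. About 1 in 20 would pass for normally distributed values. CPM was used untransformed and includes values of 0, so 8.93% cannot be read as more than chance. Of the 20, 8 came from vehicle female replicate 3, each with the mouse higher than the nearest other vehicle female: Acat2 675 CPM (438), Hmgcs1 281 (64.4), Mvk 79.5 (34.6), Idi1 194 (50.2), Fdft1 493 (285), Msmo1 622 (226), Nsdhl 83.5 (29.5) and Srebf2 98.2 (54.5). Since these genes share 1 library, the 8 are not 8 separate observations. Female replicate 1 at 0.1 mg/kg was high for Hmgcs1 (113 CPM, nearest 51.1) and Mvk (50.5, nearest 24.8), and female replicate 1 at 5 mg/kg for Fdft1 (688, nearest 346). Mylip was 13.9 CPM in vehicle female replicate 2 (nearest 4.71).

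In males, replicate 2 at 0.1 mg/kg was high for Sqle (305 CPM, nearest 119) and Cyp51 (89.1, nearest 40.1). Vehicle male replicate 2 was high for Hmgcs1 (130, nearest 66.6). Vehicle male replicate 5 was low for Tm7sf2 (129, nearest 165) and high for Mvd (2.42, nearest 0.13), a gene near 0 in that group. At 0.5 mg/kg, Mvk was 80 CPM in replicate 3 (nearest 49.7) and Scap 24.5 CPM in replicate 2 (nearest 64.5), a mouse with 2608954 counts. At 5 mg/kg, Stard4 was 2.76 CPM in replicate 2 and 0 in the others.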

How the results depend on the processing

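No member was called at 0.1 or 0.5 mg/kg in either sex under any alternative, nor did the difference between the sexes pass at those doses, and no called change turned its direction. In males at 5 mg/kg the 4 calls became 2 (Pmvk and Scap) without mice under 5000000 counts, 2 (Pmvk and Stard4) without mice over 20 CPM of cholangiocyte markers (chosen after seeing the data), and 2 to 4 when 1 mouse was left out, with 2 calls without vehicle males 1 or 3 and without males 1, 3 or 4 at that dose. Idi1 joined Pmvk, Lss and Nsdhl with DESeq2's size factors (adjusted p = 0.0908). In females at 5 mg/kg the 1 call became 2 with no filter on low counts (Fdps added), 2 with summed probes and 2 with DESeq2 (Lss added in both), and 1 to 8 when 1 mouse was left out, with 8 without vehicle female 3 and 2 without female 4 at that dose. The difference between the sexes at 5 mg/kg gave 0 to 1 call (Stard4 without male 2 at that dose). Vehicle females against vehicle males gave 4 calls with DESeq2 (Pmvk, Cyp51, Nsdhl and Hsd17b7, all lower in females) in place of 0, and 0 to 8 when 1 mouse was left out. The causes were not tested. DESeq2's size factors moved the median of all probes in males at 5 mg/kg from -0.12 to -0.03. No paired analysis was possible because the labels give the mice no replicate numbers. Few reads limit Mvd, Ggps1, Stard4, Mylip and Npc1, and groups of 4 or 5 mice with spreads as wide as those of vehicle females limit the rest.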
